A study of Mus musculus with 18 samples.

Results

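The genes described here are 10 antioxidant and glutathione genes known as targets of the transcription factor NRF2: Slc7a11, Gclc, Gclm, Gsta4, Gpx2, Txnrd1, Prdx1, Srxn1, Nqo1 and Hmox1. They were taken by gene symbol from a table of 27743 genes, and all 10 were found. All 10 also passed the filter on low values, which kept the 13078 genes that reached 1 FPKM in 3 or more libraries. FPKM, the unit of all levels below, is the number of sequenced fragments of a gene scaled to its length and to the library's total. Scaling to length lets levels be compared between genes, while scaling to the total means that a change in a few very abundant transcripts moves the values of the rest.

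NRF2, encoded by Nfe2l2, is a transcription factor that the adaptor KEAP1 hands over for degradation in resting cells and that reactive electrophiles or oxidants release. Released NRF2 pairs with small MAF proteins on antioxidant response elements and raises genes that make glutathione, reduce thioredoxin, and break down quinones, reactive aldehydes and haem. In skin the pathway is best known from keratinocytes, where it serves defence against oxidants and takes part in the cornified layer and in wound repair, and its target Hmox1 is also strongly used by macrophages that clear red cells.

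The libraries were made from total RNA of mouse skin flaps collected at day 7. In the spacer groups a mesh made by near-field electrostatic printing lay beneath the flap; in the Control group the flap received no spacer. The groups were D15L100, D15L150, D15L200, D100L150, D150L150 and Control, with 3 libraries in each, 18 in all. The meshes differed in diameter and spacing, but the labels tie neither D nor L to either, give no unit, and do not name the material. Strain, sex and age of the mice are not given either. Nor do the labels say that libraries of 1 group stem from different mice, so every p-value measures no more than the spread among these libraries, part of which may be technical. Each spacer group in turn, and the average of the 5, called the spacer mean here, was set against Control, so all of these comparisons share the same 3 Control libraries. RNA from whole flaps is a mixture, in which fewer cells of a type and less RNA per cell cannot be told apart.

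Depth hardly differed, at 28422344 to 35327357 recovered fragments per library. The first replicate of Control and the first replicate of D100L150 stood apart from the other libraries: on the first principal component of all genes, which held 37.7% of the variance, they lay at 69.9 and 49.7, against -37.5 to 23.9 for the other 16. Both matter below, because 9 of the 10 genes had their highest level of all 18 libraries in D100L150 replicate 1, and Control replicate 1 was among the 3 highest libraries for 5 of the 10. Basal keratinocyte markers of the labelled tissue, skin, were present in every library, and their summed level over 7 genes was 3156 to 7463 FPKM in the spacer libraries and 1279 to 3682 FPKM in the Control libraries. Skeletal muscle genes were present as well, and their levels by group stand beside the Gsta4 results.

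The promoters of genes that are tied to NRF2 can be read for the core of the antioxidant response element, TGACNNNGC, where N is any base. RefSeq promoters on GRCm38.p6 were at hand for 7 of the 10 genes, and the 250 bases before each start were searched on both strands; Gsta4, Hmox1 and Gclc had no entry. The core was present in 10.2% of all 32851 promoters of this length and in 3 of the 9 promoters of the 7 genes with an entry. It lay in Gclm at 134 to 126 bases before the start and in Prdx1 at 133 to 125. In Txnrd1 it lay before the second of the 3 starts, at 92 to 84. The AP-1 type motif TGACTCA was present in 4.46% of all promoters and in 2 of the 9. It lay at a pair of places each in Srxn1 and Prdx1, and 1 of those in Prdx1 lies inside its TGACNNNGC match. The related motif TGACGTCA was present in 1.55% of all promoters and in none of the 9. The promoters of 4 genes whose levels went up and down together from library to library, as described further on, are shown 5′ to 3′ on the strand of the gene with these matches in capitals, which here all lie on the opposite strand. They come from chr3:122245307-122245556 on the plus strand, chr10:82858956-82859205 on the plus strand, chr2:152105274-152105523 on the plus strand and chr3:50443614-50443863 on the minus strand, and the last holds none of the 3 motifs in these bases. The Srxn1 match nearer the start runs on into gc, so it differs from TGACNNNGC at a single base and was not counted under that motif. Bases farther than 250 from a start were not searched. A match describes letters in the genome, not binding.
Gclm: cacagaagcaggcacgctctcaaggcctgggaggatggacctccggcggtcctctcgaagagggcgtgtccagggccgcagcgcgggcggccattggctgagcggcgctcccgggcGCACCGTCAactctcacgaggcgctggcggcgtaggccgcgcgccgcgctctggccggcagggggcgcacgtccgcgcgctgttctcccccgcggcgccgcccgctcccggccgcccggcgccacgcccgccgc
Txnrd1, second start: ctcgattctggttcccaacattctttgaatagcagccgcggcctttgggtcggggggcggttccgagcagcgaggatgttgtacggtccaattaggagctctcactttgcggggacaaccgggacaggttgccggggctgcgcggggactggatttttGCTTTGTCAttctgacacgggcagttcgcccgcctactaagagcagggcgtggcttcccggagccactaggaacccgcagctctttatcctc
Srxn1: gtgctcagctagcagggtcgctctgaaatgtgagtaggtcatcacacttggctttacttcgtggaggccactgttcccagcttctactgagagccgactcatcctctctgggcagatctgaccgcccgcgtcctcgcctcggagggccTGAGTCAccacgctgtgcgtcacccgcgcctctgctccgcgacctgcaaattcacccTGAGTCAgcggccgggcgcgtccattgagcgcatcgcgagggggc
Slc7a11: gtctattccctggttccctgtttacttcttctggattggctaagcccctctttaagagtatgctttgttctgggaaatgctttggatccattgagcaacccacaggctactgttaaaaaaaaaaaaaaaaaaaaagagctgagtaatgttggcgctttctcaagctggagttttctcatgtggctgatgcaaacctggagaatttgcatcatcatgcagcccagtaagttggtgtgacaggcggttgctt

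Gsta4 was the one gene of the 10 whose level in spacer flaps differed from Control past the threshold. It encodes a glutathione transferase of the alpha class known for coupling glutathione to 4-hydroxynonenal, a reactive aldehyde from oxidised lipids, and lies at chr9:78182774-78209349 on the plus strand (GRCm38, GENCODE M21). Its level was 30.5, 75.8 and 46.8 FPKM in the D15L100 libraries, 63.0, 49.7 and 119.7 FPKM in the D15L150 libraries and 93.9, 57.5 and 231 FPKM in the D15L200 libraries. It was 438, 138 and 289.5 FPKM in the D100L150 libraries, 235, 342 and 81.6 FPKM in the D150L150 libraries and 30.5, 18.6 and 40.0 FPKM in the Control libraries. All libraries of every spacer group except D15L100 lay above the highest Control library. Within the spacer groups the spread was wide, with the lowest D150L150 library below the highest libraries of D15L150 and D15L200.

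On the log2(FPKM + 1) scale, the scale of every log2 difference here, Gsta4 rose by 3.15 ± 0.62 in D100L150 against Control (standard error, limma adjusted p = 0.032) and by 2.68 ± 0.62 in D150L150 (limma adjusted p = 0.040). The group means were 288 ± 150.3 FPKM in D100L150 and 219 ± 131 FPKM in D150L150 against 29.7 ± 10.7 FPKM in Control (SD, n = 3 each), 9.71 and 7.38 times the Control mean. Over the mean of the 5 spacer groups Gsta4 rose by 1.95 ± 0.48 (limma adjusted p = 0.040). The differences in D15L200, 1.89 ± 0.62, in D15L150, 1.32 ± 0.62, and in D15L100, 0.73 ± 0.62, did not pass (limma adjusted p = 0.14, 0.26 and 1.00). Gsta4 was thus 1 of 10 genes called in D100L150, D150L150 and the spacer mean, where 1.38%, 2.42% and 3.56% of all genes tested were called. In D100L150 the call was lost with no filter on low values (limma adjusted p = 0.065), with a replicate block (0.063), with the compared groups alone (0.122) and after adjustment for muscle content (0.087). It was lost as well without Control replicate 1 (limma adjusted p = 0.109), Control replicate 2 (0.080) or D100L150 replicate 1 (0.183), while the log2 difference stayed between 2.77 and 3.60 whichever single library was left out. With the compared groups alone, and without Control replicate 1 or D100L150 replicate 1, limma called 0 of all genes in D100L150. In D150L150 and over the spacer mean the calls were lost without any 1 of the Control libraries (limma adjusted p up to 0.153 and 0.249), without several single spacer libraries, with no filter, with the block, after the muscle adjustment, and by limma-voom (adjusted p = 0.052 in both). Limma called 0 of all genes over the spacer mean without Control replicate 1, and 0 in D150L150 without D150L150 replicate 1.

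A pair of other measures are set beside the Gsta4 difference. The summed level of 6 skeletal muscle markers was 1827, 2254 and 10420.4 FPKM in the D100L150 libraries and 1609, 3191 and 2262 FPKM in the D150L150 libraries, against 6367, 13620.0 and 6079.5 FPKM in the Control libraries. All D150L150 libraries thus lay below all Control libraries, none of the 6 markers was called in either comparison or at 0 in any library, and Gsta4 went with this sum over the 18 libraries at a Pearson r of -0.66 on the log scale (-0.39 within groups). With the mean log2 level of the 6 markers as a covariate the Gsta4 difference was 2.76 ± 0.62 in D100L150 and 2.13 ± 0.66 in D150L150 (limma adjusted p = 0.087 and 0.286). Mitochondrial genes made up 3.73%, 4.09% and 6.64% of the summed FPKM in the D100L150 libraries and 3.35%, 3.68% and 4.41% in the D150L150 libraries, against 12.5%, 10.7% and 7.40% in the Control libraries. Neither spacer group overlapped Control in this share, and its part in the Gsta4 difference was not tested.

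**Figure D1:**
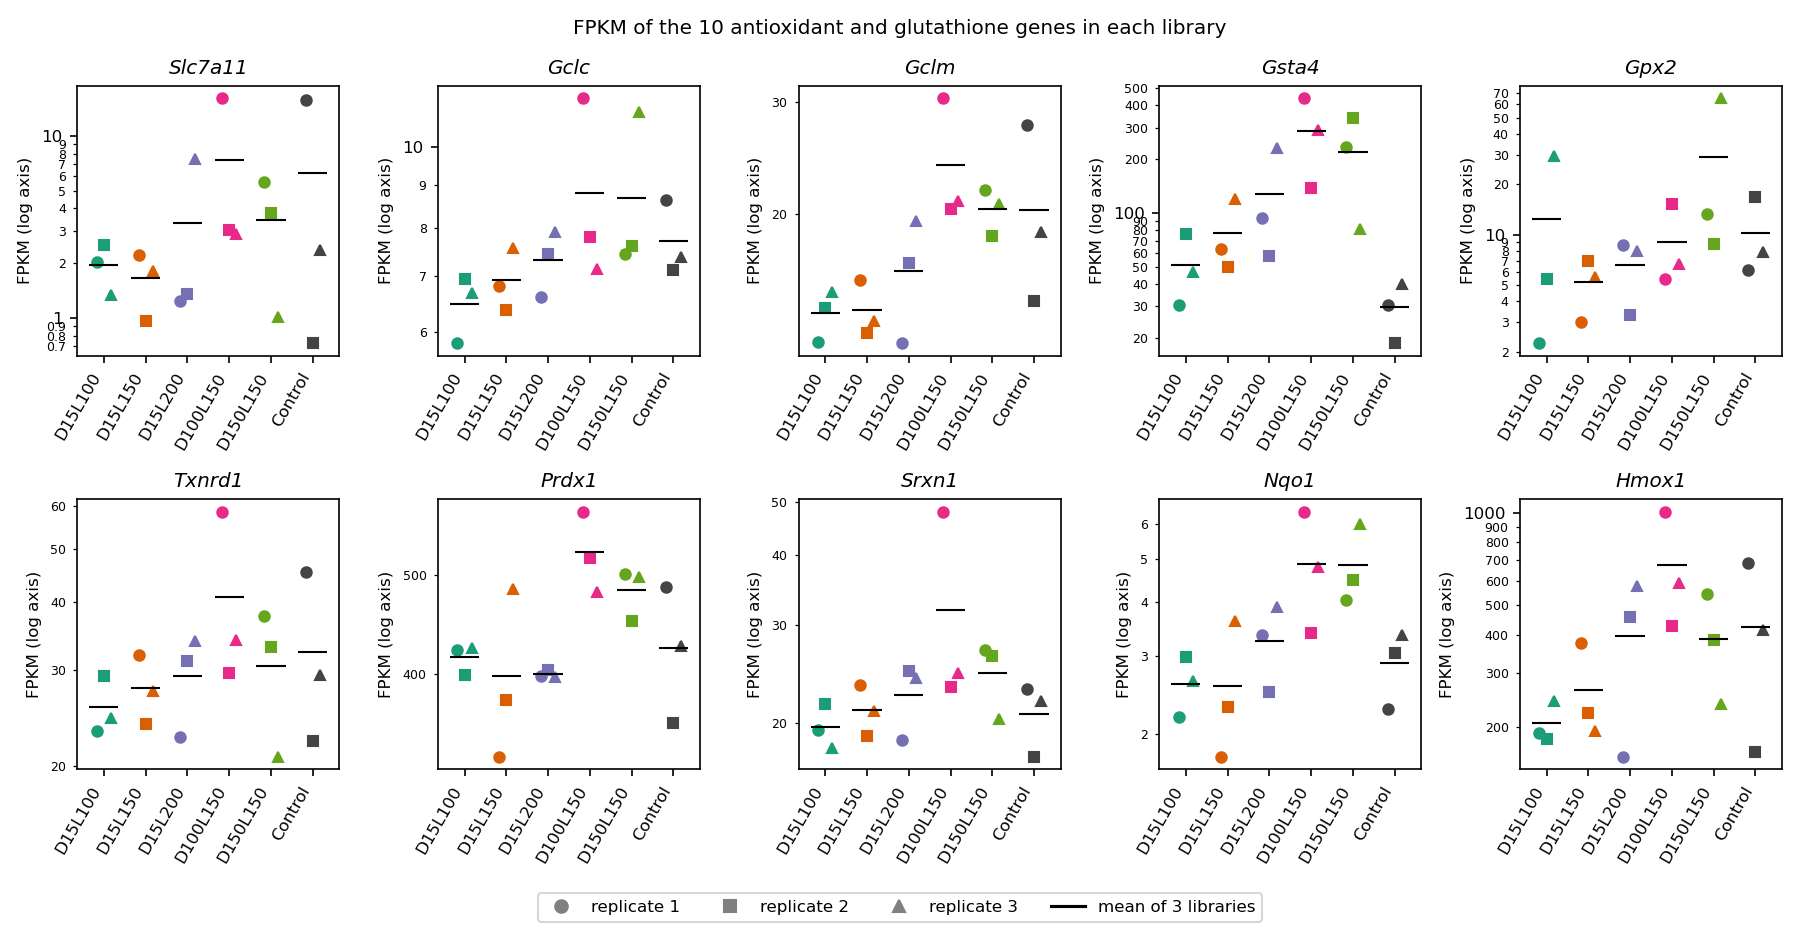
FPKM (log axis) of each of the 10 genes in every library, by group; shapes mark the replicate number and bars the mean of the 3 libraries. Gsta4 lies above all Control libraries in every spacer group but D15L100, while for the other genes except Gpx2 the D100L150 replicate 1 point and often the Control replicate 1 point set the top of the range.

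Gpx2, the other user of glutathione in the set, encodes a glutathione peroxidase of epithelia that reduces peroxides, and lies at chr12:76792333-76795554 on the minus strand. It was 2.25, 5.41 and 29.5 FPKM in the D15L100 libraries, 3.01, 6.94 and 5.62 FPKM in the D15L150 libraries and 8.62, 3.33 and 7.94 FPKM in the D15L200 libraries. It was 5.41, 15.2 and 6.69 FPKM in the D100L150 libraries, 13.3, 8.85 and 65.2 FPKM in the D150L150 libraries and 6.17, 16.7 and 7.87 FPKM in the Control libraries. A single library, D150L150 replicate 3, was far above all others, followed by D15L100 replicate 3, and every spacer group overlapped Control. The log2 difference was 1.02 ± 0.79 in D150L150 and -0.17 ± 0.79 in D100L150 and neither passed (limma adjusted p = 0.50 and 0.92). Gpx2 overlaps Fntb on the opposite strand, which reached 9.33 FPKM, and whether fragments were assigned by strand is not given in the sources used here.

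Slc7a11 encodes the cystine carrier subunit of the exchanger xCT, which brings in the cystine from which cells make glutathione, and lies at chr3:49892526-50443614 on the minus strand. Its level was 2.04, 2.52 and 1.34 FPKM in the D15L100 libraries, 2.23, 0.967 and 1.81 FPKM in the D15L150 libraries and 1.24, 1.35 and 7.44 FPKM in the D15L200 libraries. It was 16.1, 3.04 and 2.89 FPKM in the D100L150 libraries, 5.62, 3.78 and 1.01 FPKM in the D150L150 libraries and 15.8, 0.726 and 2.38 FPKM in the Control libraries. The highest libraries of D100L150 and of Control were thus almost equal, and Control replicate 1 had 10.15 times the mean of the other Control libraries. The log2 difference was 0.49 ± 0.79 in D100L150 and -0.31 ± 0.61 over the spacer mean (limma adjusted p = 0.75 and 0.79). Without Control replicate 1 the difference over the spacer mean turned to 0.62 and did not pass (the limma adjusted p was 0.40 or more whichever library was left out). Slc3a2, the heavy chain that carries SLC7A11 to the cell surface, differed by 0.10 ± 0.16 over the spacer mean and did not pass (limma adjusted p = 0.74).

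Gclc and Gclm encode the catalytic and the modifier subunit of glutamate-cysteine ligase, the rate-limiting enzyme of glutathione synthesis. Gclc (chr9:77754535-77794485, plus strand) was the steadier of the pair, with 11.4, 7.81 and 7.14 FPKM in the D100L150 libraries, 7.44, 7.61 and 11.0 FPKM in the D150L150 libraries and 8.63, 7.12 and 7.37 FPKM in the Control libraries. In D15L100 it was 5.82, 6.95 and 6.69 FPKM, and all 3 of these libraries lay below the lowest Control library, as did the libraries of 3.97% of all genes tested; the log2 difference was -0.22 ± 0.16 (limma adjusted p = 1.00). In D15L150 and D15L200 its means were 6.92 ± 0.602 and 7.32 ± 0.659 FPKM against 7.71 ± 0.808 FPKM in Control (SD, n = 3 each), with overlap in both.

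Gclm (chr3:122245557-122270732, plus strand) was 12.6, 14.2 and 15.1 FPKM in the D15L100 libraries, 15.7, 13.0 and 13.6 FPKM in the D15L150 libraries and 12.5, 16.7 and 19.5 FPKM in the D15L200 libraries. It was 30.4, 20.3 and 20.98 FPKM in the D100L150 libraries, 21.8, 18.4 and 20.7 FPKM in the D150L150 libraries and 27.6, 14.6 and 18.7 FPKM in the Control libraries. Every spacer group overlapped the Control libraries, although several D15 libraries lay below all 3 of them. Its log2 differences of -0.47 ± 0.21 in D15L100 and -0.46 ± 0.21 in D15L150 against Control had unadjusted p-values of 0.042 and 0.047 and did not pass after adjustment (limma adjusted p = 1.00 and 0.25). With 1 library left out at a time they ran from -0.67 to -0.23 and from -0.66 to -0.22. Control replicate 1 had 1.66 times the mean of the other Control libraries. In D15L100 and in D15L150 none of the 10 genes was called by limma, 1 of 10 had an unadjusted p under 0.05 in each, and limma-voom on recovered fragments gave the same counts. Of all genes tested 0% were called in either comparison, and 3.30% in D15L100 and 19.8% in D15L150 had an unadjusted p under 0.05.

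Txnrd1 encodes the cytosolic thioredoxin reductase, the selenoenzyme that passes electrons from NADPH to thioredoxin, and lies at chr10:82833951-82897712 on the plus strand. It was 23.2, 29.2 and 24.5 FPKM in the D15L100 libraries, 32.0, 23.9 and 27.5 FPKM in the D15L150 libraries and 22.6, 31.2 and 33.9 FPKM in the D15L200 libraries. It was 58.5, 29.6 and 34.1 FPKM in the D100L150 libraries, 37.6, 33.1 and 20.8 FPKM in the D150L150 libraries and 45.3, 22.3 and 29.4 FPKM in the Control libraries. D100L150 replicate 1 and Control replicate 1 were the highest pair, every group overlapped Control, and the log2 difference in D100L150 was 0.32 ± 0.29 (limma adjusted p = 0.54), from 0.036 to 0.59 with 1 library left out at a time. Of the genes that share its span, Gm38560 on the opposite strand reached 2.10 FPKM and Eid3 on the same strand 0.69 FPKM.

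Prdx1 encodes a peroxiredoxin that reduces hydrogen peroxide with electrons from thioredoxin (chr4:116685544-116700822, plus strand). It was 422, 399 and 425 FPKM in the D15L100 libraries, 332, 377 and 484 FPKM in the D15L150 libraries and 398, 403 and 398 FPKM in the D15L200 libraries. It was 578, 520.2 and 482 FPKM in the D100L150 libraries, 502, 451 and 498 FPKM in the D150L150 libraries and 487, 358 and 426 FPKM in the Control libraries. With Hmox1 it was the most abundant of the 10 genes, and its levels were also among the steadiest: 2 of the 3 D100L150 libraries lay above every Control library and the third just below the highest. The log2 difference in D100L150 was 0.32 ± 0.14, with an unadjusted p of 0.041 and a limma adjusted p of 0.22.

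Srxn1 encodes sulfiredoxin, which repairs over-oxidised peroxiredoxins (chr2:152105516-152111376, plus strand). It was 48.0, 23.2 and 24.6 FPKM in the D100L150 libraries, 27.0, 26.3 and 20.3 FPKM in the D150L150 libraries and 23.0, 17.4 and 21.9 FPKM in the Control libraries. The D15 groups stayed at means of 19.7 ± 1.8 FPKM in D15L100, 21.1 ± 2.2 FPKM in D15L150 and 22.5 ± 3.39 FPKM in D15L200, against 20.8 ± 2.99 FPKM in Control (SD, n = 3 each). All 3 D100L150 libraries lay above the Control libraries, but the lowest, 23.2 FPKM, lay only just above the highest Control library, 23.0 FPKM, and most of the group's excess was replicate 1. The log2 difference in D100L150 was 0.53 ± 0.22 and did not pass (limma adjusted p = 0.20).

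Nqo1 encodes the quinone reductase that is the classical readout of NRF2 activity (chr8:107388225-107403206, minus strand). It had the lowest Control mean of the 10 genes, 2.9 ± 0.56 FPKM (SD, n = 3). It was 2.18, 2.99 and 2.63 FPKM in the D15L100 libraries, 1.77, 2.3 and 3.62 FPKM in the D15L150 libraries and 3.35, 2.49 and 3.89 FPKM in the D15L200 libraries. It was 6.42, 3.39 and 4.8 FPKM in the D100L150 libraries, 4.03, 4.48 and 6.02 FPKM in the D150L150 libraries and 2.28, 3.06 and 3.36 FPKM in the Control libraries. All libraries of D100L150 and of D150L150 lay above all Control libraries, in D100L150 barely, with its lowest library at 3.39 FPKM and the highest Control library at 3.36 FPKM. The log2 differences of 0.57 ± 0.22 in D100L150 and 0.58 ± 0.22 in D150L150 had unadjusted p-values of 0.022 and 0.020 and did not pass (limma adjusted p = 0.16 and 0.16).

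Hmox1 encodes haem oxygenase 1, which opens the haem ring and releases iron, carbon monoxide and biliverdin (chr8:75093621-75100589, plus strand). It was 192, 183 and 244 FPKM in the D15L100 libraries, 375, 222 and 194 FPKM in the D15L150 libraries and 160.3, 456 and 576 FPKM in the D15L200 libraries. It was 1009, 428 and 592 FPKM in the D100L150 libraries, 544, 384 and 238 FPKM in the D150L150 libraries and 687, 166 and 415 FPKM in the Control libraries. The Control libraries had an SD of 261 FPKM, above that of every spacer group but D100L150, and every spacer group overlapped them. The log2 differences were 0.81 ± 0.54 in D100L150 and -0.82 ± 0.54 in D15L100 (limma adjusted p = 0.40 and 1.00). With 1 library left out at a time they ran from 0.25 to 1.27 and from -1.38 to -0.36.

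**Figure D2:**
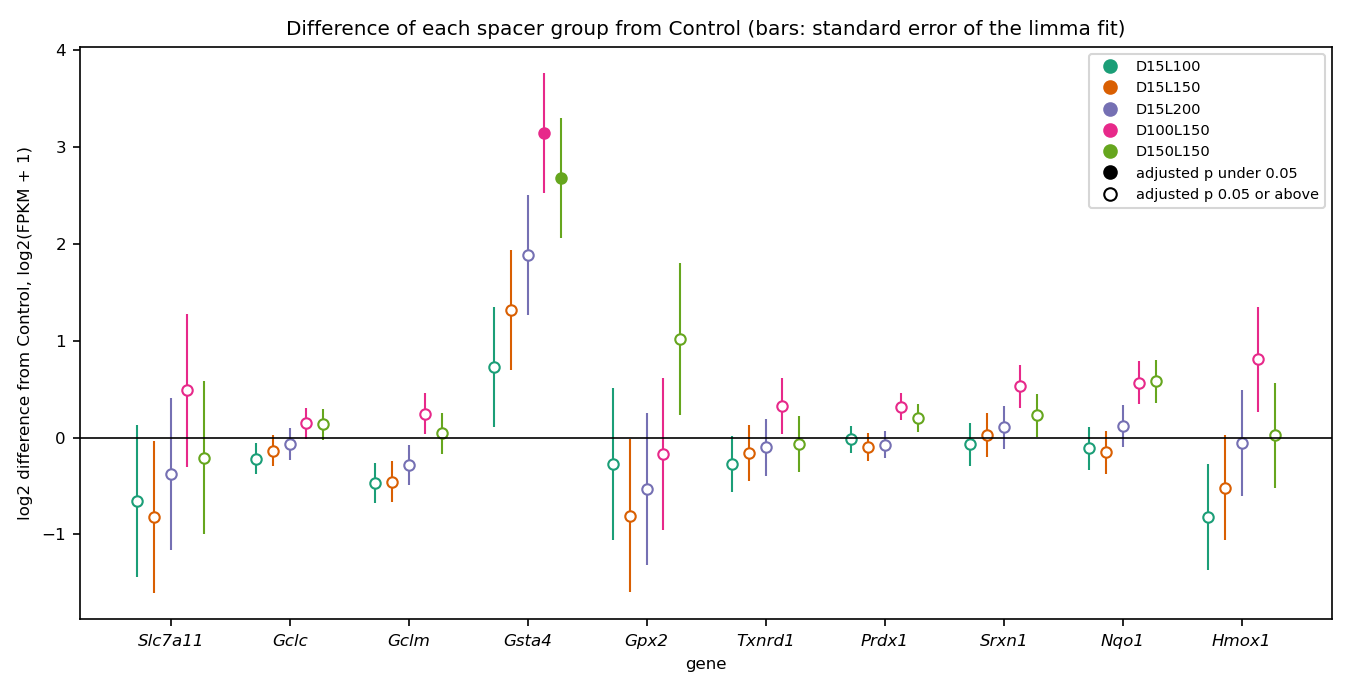
Log2 difference from Control, on the log2(FPKM + 1) scale, of each of the 10 genes (horizontal axis) in each of the 5 spacer groups (colours); bars are standard errors of the limma model, and filled points have an adjusted p under 0.05. Gsta4 in D100L150, at 3.15, is the largest difference, and only the Gsta4 points of D100L150 and D150L150 are filled.

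Across the comparisons with Control, D100L150 held the most genes on the high side. In D100L150 9 of the 10 log2 differences were positive, where 42.5% of all genes tested were, with a median of 0.40 beside -0.05 over all genes tested, and 4 genes, Gsta4, Nqo1, Srxn1 and Prdx1, had an unadjusted p under 0.05, where 21.1% of all genes did. The first 3 of these had all libraries above Control, 3 of 10 where 11.0% of all genes tested did. The 10 genes are not independent: 9 of them had their highest level in D100L150 replicate 1, and several went together from library to library. With 1 library left out at a time, the D100L150 difference fell as low as -0.037 for Gclc, -0.22 for Slc7a11, 0.036 for Txnrd1 and 0.044 for Gclm. In D150L150 8 of 10 were positive, where 50.3% of all genes were, with a median of 0.17 beside 0.00 over all genes, and 2 genes, Gsta4 and Nqo1, had an unadjusted p under 0.05, where 20.4% of all genes did, and all libraries above Control, where 14.3% did. On the other side, 1 of the 10 was positive in D15L100, 2 in D15L150 and 3 in D15L200, where 46.4%, 43.3% and 40.8% of all genes were. The medians of the 10 in these groups were -0.24, -0.16 and -0.07, beside -0.01, -0.05 and -0.06 over all genes. Control replicate 1 had 10.15, 2.36 and 1.76 times the mean of the other Control libraries for Slc7a11, Hmox1 and Txnrd1. With 1 library left out at a time, Slc7a11 ran from -1.36 to 0.28 in D15L100 and from -1.53 to 0.11 in D15L150. Txnrd1 ran from -0.39 to 0.11 in D15L150, while Gclc, Gclm and Hmox1 stayed negative in D15L100 and D15L150. Over the spacer mean 4 were positive, where 43.4% of all genes were, with a median of -0.04 beside -0.04 over all genes and 1 gene at an unadjusted p under 0.05, where 22.4% of all genes were. Gsta4 alone lay above Control without overlap in D15L150 and in D15L200, where 12.4% and 11.2% of all genes did, and in D15L200 none of the 10 was called, with 1 unadjusted p under 0.05 by limma and 1 by limma-voom, where 1.56% of all genes were called and 17.3% had an unadjusted p under 0.05.

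The spacer groups were also compared with each other along each of the label numbers. With L150 kept, all 10 genes were higher in D100L150 than in D15L150, with a median log2 difference of 0.67 beside -0.02 over all genes tested, and all 10 were higher in D150L150 than in D15L150, with a median of 0.52 beside 0.04. None of these differences passed: limma called 0 of the 10 in D100L150 against D15L150, with 6 at an unadjusted p under 0.05 (6 by limma-voom), where 11.4% of all genes were. It called 0 in D150L150 against D15L150, with 4 at an unadjusted p under 0.05 (3 by limma-voom), where 4.95% of all genes were, and 0% of all genes were called in both. These comparisons share the D15L150 libraries, and the 10 genes are not independent of each other. Gclm, Gsta4, Hmox1 and Slc7a11 had all D100L150 libraries above all D15L150 libraries, 4 of 10 where 9.57% of all genes did, and Gclm, Gpx2 and Nqo1 had all D150L150 libraries above all D15L150 libraries, 3 of 10 where 8.20% did.

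Gclm alone was in both of these sets, with 30.4, 20.3 and 20.98 FPKM in the D100L150 libraries and 21.8, 18.4 and 20.7 FPKM in the D150L150 libraries against 15.7, 13.0 and 13.6 FPKM in the D15L150 libraries. Its log2 difference was 0.70 ± 0.21 in D100L150 against D15L150 (limma adjusted p = 0.41) and 0.50 ± 0.21 in D150L150 against D15L150 (limma adjusted p = 0.89). For Gsta4 it was 1.83 ± 0.62 in D100L150 against D15L150 (limma adjusted p = 0.41) and 1.36 ± 0.62 in D150L150 against D15L150 (limma adjusted p = 0.89), and the D150L150 libraries overlapped the D15L150 libraries. In D150L150 against D100L150, 2 of 10 were positive and limma called none, with 0 at an unadjusted p under 0.05 and 0 by limma-voom, where 2.20% of all genes were. Along the second label number, with D15 kept, limma called none of the 10 in any of the 3 pairs or in the F test over D15L100, D15L150 and D15L200, with 0 at an unadjusted p under 0.05 by limma and 0 by limma-voom in each. Of all genes 4.72% were under it in D15L150 against D15L100, 5.18% in D15L200 against D15L100, 0.734% in D15L200 against D15L150 and 2.89% in that F test. All 10 genes were higher in D15L200 than in D15L150 as well, with a median log2 difference of 0.22. In D15L200 against D15L100 8 were higher (median 0.18), and in D15L150 against D15L100 6 were (median 0.05). Having all 10 on the high side was thus not particular to the first label number. The F test over D15L150, D100L150 and D150L150 called none of the 10 either, with 4 at an unadjusted p under 0.05 by limma and 4 by limma-voom, where 5.74% of all genes were. In all of these 0% of all genes were called.

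From library to library the 10 genes fell into members that went together and members that did not. Over the 18 libraries 41 of the 45 pairs had a positive Pearson correlation of log2(FPKM + 1), and 15 of these were over 0.7. After each group's mean was taken away, so that only differences between libraries of the same group were left, 36 of 45 were positive. The pairs among Hmox1, Gclm, Txnrd1, Slc7a11 and Srxn1 then ran from 0.71, for Gclm with Srxn1, to 0.91, for Slc7a11 with Txnrd1. Without the 2 libraries farthest from the median of 1 gene of the pair, the coefficients of the levels themselves ran from 0.57, for Gclm with Slc7a11, and 0.58, for Gclm with Txnrd1, to 0.91, for Txnrd1 with Srxn1. Gpx2 gave -0.57 with Txnrd1 and with Srxn1 after group means were taken away. For the levels themselves these were -0.36 and -0.26, and without the 2 libraries farthest from the Gpx2 median only -0.07 and -0.10, so the negative values rest on a few libraries. Gsta4 gave 0.37 with Gclm and 0.64 with Txnrd1. The libraries share preparation and the scaling to their own totals, so these values describe the 18 libraries and were not tested.

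**Figure D3:**
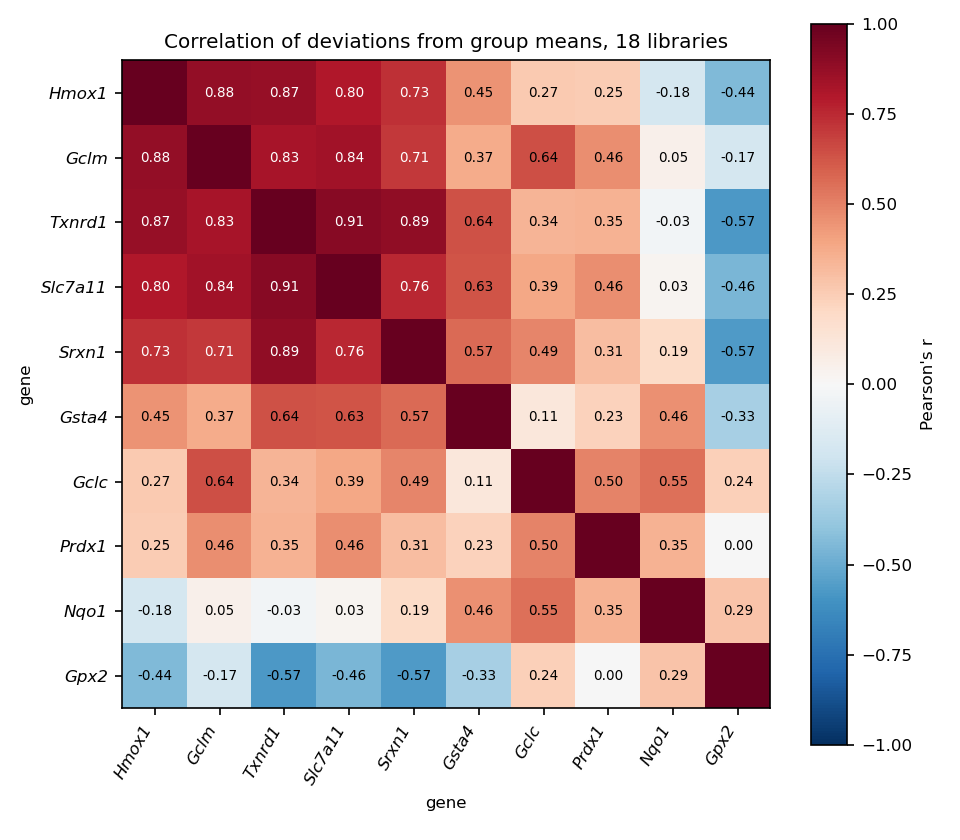
Pearson correlation of log2(FPKM + 1) over the 18 libraries between each pair of the 10 genes, after the mean of each group was taken away. Hmox1, Gclm, Txnrd1, Slc7a11 and Srxn1 form a block at 0.71 to 0.91, and Gpx2 lies below zero with all 5.

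The levels of marker genes of other cell types moved with some of the 10. The summed level of the wound keratins Krt6a, Krt6b, Krt16 and Krt17, made by keratinocytes in injured or thickened epidermis, was 5711 to 8271 FPKM in the D100L150 libraries and 5870.0 to 6125 FPKM in the D150L150 libraries, against 749 to 1639 FPKM in the Control libraries. It was 1543 to 3494 FPKM in D15L100, 2620 to 5203 FPKM in D15L150 and 4097 to 6088 FPKM in D15L200. The D15L150 and D15L200 libraries thus also lay above all Control libraries. All 4 of these keratins were higher past the threshold in D100L150, in D150L150 and over the spacer mean, and none was at 0 in any library. Gsta4 followed this sum over the 18 libraries with a Pearson r of 0.86 on the log scale (Spearman rho 0.90), Nqo1 with 0.67 and Slc7a11 with 0.11. Within groups the value for Gsta4 was 0.51. Without the 2 libraries farthest from the median of the sum the values were 0.85 for Gsta4, 0.73 for Nqo1 and 0.53 for Slc7a11. Other keratinocyte markers went less closely with Gsta4. The summed basal markers gave 0.68 over the 18 libraries and 0.21 within groups. The summed markers of the layers above (Krt1, Krt10, Ivl, Lor, Flg, Dsc1 and Dsg1a) gave 0.15 and -0.27. The part of the keratinocyte content of the flaps in the Gsta4 difference was not tested.

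Slc7a11 followed the summed level of 6 neutrophil markers (S100a8, S100a9, Csf3r, Cxcr2, Ly6g and Retnlg), with an r of 0.92 over the 18 libraries and 0.92 within groups. Txnrd1, Hmox1 and Gclm did so with 0.79, 0.78 and 0.76 over the 18 libraries. Without the 2 libraries farthest from the median of the sum these were 0.88 for Slc7a11, 0.74 for Txnrd1, 0.69 for Hmox1 and 0.71 for Gclm. With the neutrophil sum Gsta4 gave 0.54 over the 18 libraries, 0.70 within groups and 0.32 without those 2 libraries. This sum was 2159.6 to 9572 FPKM in the D100L150 libraries, 1314 to 5226 FPKM in the D150L150 libraries and 1003 to 5991 FPKM in the Control libraries, and no marker was at 0 in any library. None of the 6 was called in D100L150, in D150L150 or over the spacer mean. D100L150 replicate 1, D15L200 replicate 3 and Control replicate 1 had both the 3 highest sums and the 3 highest Slc7a11 levels. S100a8 and S100a9 are made by wounded keratinocytes as well. The sum of 6 erythroid markers, globins included, gave an r of 0.68 with Hmox1, 0.81 with Gsta4, 0.75 with Slc7a11 and 0.79 with Txnrd1. Within groups the values were 0.60 for Hmox1, 0.72 for Gsta4, 0.90 for Slc7a11 and 0.83 for Txnrd1. The erythroid sum was 3507 FPKM at its highest, in D100L150 replicate 1, and 1 marker of this list was at 0 in 4 libraries. With the summed blood endothelium markers Pecam1, Cdh5, Kdr, Tek and Cldn5, Slc7a11 gave 0.75 over the 18 libraries and 0.81 within groups. The sum of 8 macrophage markers gave 0.00 with Hmox1 and was 2104 to 3511 FPKM in the D100L150 libraries against 1678 to 2499.7 FPKM in the Control libraries. The part of any of these cell types in the levels was not tested.

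**Figure D4:**
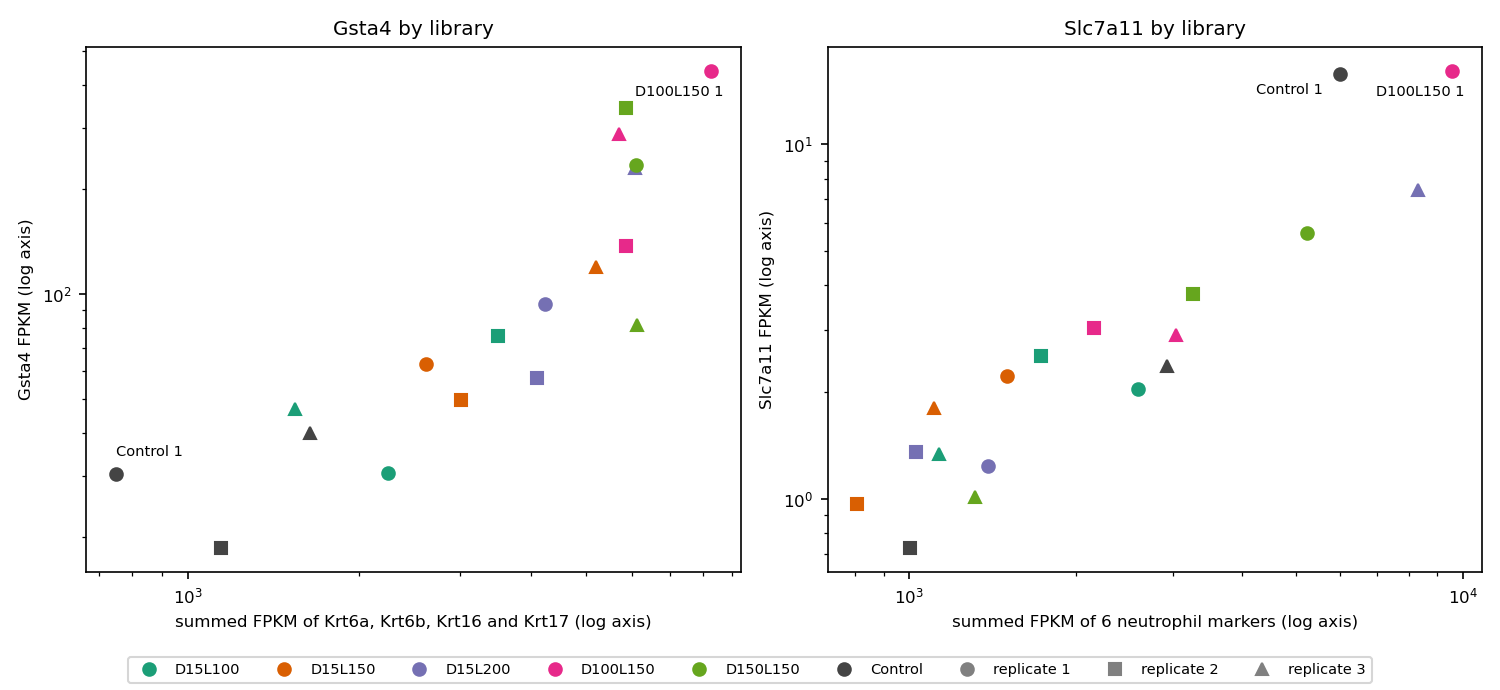
Left, Gsta4 FPKM against the summed FPKM of the wound keratins Krt6a, Krt6b, Krt16 and Krt17; right, Slc7a11 FPKM against the summed FPKM of 6 neutrophil markers; all axes are log axes, each point is 1 of the 18 libraries, colours mark groups and shapes replicate numbers. Gsta4 is higher where the keratin sum is higher (r = 0.86), and Control replicate 1 has a low keratin sum but a Slc7a11 level close to that of D100L150 replicate 1.

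Among the genes whose library pattern was most like that of Gsta4, by Pearson r over 18 libraries, were Tgfa (0.95), Csta3 (0.94), Rps6ka4 (0.94) and Fam83a (0.94). Those most like Hmox1 were Pram1 (0.93), Litaf (0.92), Adam8 (0.91), Tnfsf14 (0.90) and Ccr1 (0.90). Tgfa encodes an EGF-family growth factor, while Ccr1 encodes a chemokine receptor of myeloid cells and Adam8 a membrane protease of leukocytes.

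Other genes of the pathway were read from lists. Of 9 tested genes of NRF2 and its regulators, none was called in any comparison with Control. Nfe2l2 was 51.2 ± 13.4 FPKM in D100L150 and 46.1 ± 18.6 FPKM in Control (SD, n = 3 each), with a log2 difference of -0.06 ± 0.18 over the spacer mean. Keap1 was 16.8 ± 2.08 FPKM in D100L150 and 18.1 ± 2.2 FPKM in Control, with -0.07 ± 0.08 over the spacer mean. The messenger RNA of NRF2 does not report its protein level or activity.

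In the list of glutathione synthesis and recycling, 2 of 8 tested genes rose over the spacer mean and none fell, where 3.56% of all genes were called. Ggct, encoding gamma-glutamylcyclotransferase, which splits gamma-glutamyl peptides, rose by 1.77 ± 0.30 (limma adjusted p = 0.011), with all 15 spacer libraries above all 3 Control libraries, where 0.795% of all genes tested did so. It was 109.5, 78.2 and 73.8 FPKM in the D15L200 libraries and 71.3, 68.6 and 69.3 FPKM in the D150L150 libraries against 10.6, 26.0 and 26.4 FPKM in the Control libraries. Glrx, encoding glutaredoxin, rose by 1.02 ± 0.26 over the spacer mean and by 1.48 ± 0.33 in D100L150 (limma adjusted p = 0.045 and 0.047). In D100L150 it was 288, 157 and 153 FPKM, against 92.2, 42.9 and 78.4 FPKM in Control, and among single spacer groups Ggct also rose in D15L200 and D150L150 (limma adjusted p = 0.032 and 0.035). Without Control replicate 1 neither was called over the spacer mean (limma adjusted p = 0.150 for Ggct and 0.154 for Glrx). In that fit 0 of all genes tested were called, so the loss says nothing particular about either gene. The log2 differences there were 1.36 for Ggct and 1.24 for Glrx.

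Of 7 genes of NADPH supply, 1 rose over the spacer mean: G6pdx, encoding glucose-6-phosphate dehydrogenase, by 0.58 ± 0.14 (limma adjusted p = 0.042). Of 17 tested genes of aldehyde and quinone detoxification 2 rose, the carboxylesterase gene Ces2g by 0.87 ± 0.15 and the carbonyl reductase gene Cbr3 by 0.87 ± 0.19 (limma adjusted p = 0.011 and 0.025). Beside both counts, 3.56% of all genes tested were called over the spacer mean. Without Control replicate 1 the calls of G6pdx, Ces2g and Cbr3 were lost as well, with limma adjusted p-values of 0.375, 0.136 and 0.276. This is again the fit in which 0 of all genes tested were called. The log2 differences there were 0.39 for G6pdx, 0.59 for Ces2g and 0.66 for Cbr3. No gene of these lists fell. Over the spacer mean none passed (limma) among 5 other glutathione peroxidases, 23 other glutathione transferases, 13 other thioredoxin and peroxiredoxin genes, 4 genes of superoxide and peroxide removal and 10 of haem and iron handling, with median log2 differences of -0.48, -0.10, 0.00, -0.21 and -0.07 beside -0.04 over all genes. The summed level of the 4 genes of superoxide and peroxide removal was 372 to 429 FPKM in the Control libraries. All libraries of D15L150 (279 to 323 FPKM), D15L200 (305 to 332), D100L150 (320 to 344) and D150L150 (296 to 329) lay below these. The D15L100 libraries (315 to 420 FPKM) overlapped Control, and this sum was not tested. How often sums of other genes lay below Control in the same way was not counted, so nothing shows that this is unusual. Several of the transferases have near-identical copies, such as Gsta1 and Gsta2 or Gstp1 and Gstp2, between which the counting could split fragments, so their single values are uncertain and are not given.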

How the data were processed

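RNA of 18 mouse skin flap libraries was extracted with TRIzol and made into libraries with a VAHTS Universal V6 kit, per the labels' protocols. The authors deposited FPKM values of 27743 genes. Named in the submitters' processing notes, without role or order, are the mm10 build and the tools DESeq2, HTSeq, HISAT2, fastp and R 3.2.0. The sources used here give neither the gene annotation nor the strand setting of the counting. Since FPKM is scaled to a library's total, a change in a few very abundant transcripts moves the values of all the rest.

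In 100.0% of genes the FPKM values were multiples of a single step, the worth of 1 fragment, to a relative tolerance of 1e-07, which gave fragments per gene and library. Replicates differed by more than counting chance (chi-square per gene 57.7 to 336.9), so none was merged as the same library deposited again; this does not exclude separate preparations of 1 sample. Values were taken as log2(FPKM + 1), which understates changes of low genes. The 13078 genes that reached 1 FPKM in 3 or more libraries were kept, and 14665 were removed. A limma 3.58.1 model (R 4.3.3, mean-variance trend, robust empirical Bayes) took all 18 libraries in 6 groups, with no covariate. It was also run on simulated data with independent noise for each gene and library. That simulation held no outlying libraries, so it cannot show how the model behaves with those seen here. Benjamini-Hochberg adjustment ran over all genes of a comparison, and genes were called at an adjusted p under 0.05.

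The 10 genes, the pathway lists and the marker lists were chosen with earlier results of these data known. All 10 genes are named; from each pathway list at most 3 genes with the smallest p over the spacer mean were eligible, plus Nfe2l2, Keap1 and Slc3a2 by role, and the 5 genes most like Gsta4 and Hmox1 by correlation; 1 of these is not reported here. Alternatives were limma-voom on recovered fragments, no filter, a pseudocount of 0.1, quantile scaling, rescaling to TPM, fits of the compared groups alone, a replicate block, a skeletal muscle covariate and leaving out each library. Gene positions come from GENCODE M21 (GRCm38), promoters from RefSeq (GRCm38.p6).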

Additional observations from a re-analysis of the deposited data

Results flagged for a closer look

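For 3 genes, pairs of spacer groups that were not among the planned comparisons lay on opposite sides of the Control mean in every library. None of these differences was tested, and the Control libraries themselves spanned both sides. How many of all genes tested did the same was not counted, so nothing shows that these pairs are unusual.

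Gclm was above the Control mean of 20.3 FPKM in all D100L150 libraries and below it in all D15L100 and all D15L200 libraries. The log2 difference was 0.72 in D100L150 against D15L100 and 0.53 in D100L150 against D15L200. The lowest D100L150 library, at 20.3 FPKM, lay only just above that mean.

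Prdx1 was above its Control mean of 424 FPKM in all D100L150 and all D150L150 libraries and below it in all D15L200 libraries, with log2 differences of 0.39 in D100L150 against D15L200 and 0.27 in D150L150 against D15L200. Hmox1 was above its Control mean of 423 FPKM in all D100L150 libraries and below it in all D15L100 libraries, with a log2 difference of 1.63 in D100L150 against D15L100.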

How the results depend on the processing

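Of the 10 genes, Gsta4 was the one whose calls moved. With all 18 libraries it was called (1 of 10 genes) in D100L150, in D150L150 and over the spacer mean. The count was 0 in all 3 with no filter on low values, with a replicate block and with the skeletal muscle covariate, 0 in D100L150 and D150L150 with the compared groups alone, 0 in D150L150 and over the spacer mean by limma-voom, and 0 in D100L150 and over the spacer mean without Control replicate 1 and D100L150 replicate 1 together. Leaving out 1 library at a time gave counts of 0 to 1 in each, with 0 in 3, 9 and 8 of the 18 fits in D100L150, in D150L150 and over the spacer mean. The Gsta4 difference itself stayed positive under every alternative run for these 3 comparisons. Of the called pathway genes, the call over the spacer mean was lost in 18 of 26 alternatives for Glrx, 17 for G6pdx, 5 for Cbr3 and 2 each for Ces2g and Ggct, with no change of direction. Replicate numbers were shared between groups, but in none of 11 comparisons did every pair of same-numbered libraries correlate over 0.1 (range -0.64 to 0.53), so they were taken to share only a number. With the replicate block the limma adjusted p of Gsta4 was 0.063 in D100L150, 0.069 in D150L150 and 0.064 over the spacer mean. Over all genes the counts called moved as well: 181 in D100L150 became 50 without the filter, 46 with the block, 32 with the muscle covariate, 90 by limma-voom and 0 with the compared groups alone; 317 in D150L150 became 82, 105, 3, 183 and 47; 466 over the spacer mean became 227, 256, 236 and 285 by the first 4; 204 in D15L200 became 0, 0, 64, 10 and 52. The 0 in D15L150 became 28 with a pseudocount of 0.1, 88 with quantile scaling, 113 with TPM and 162 with the muscle covariate; without the pair of libraries the spacer mean and D100L150 gave 0. Leaving out 1 library at a time gave 0 to 351 in D100L150 (0 without Control replicate 1 or D100L150 replicate 1), 0 to 481 in D150L150 (0 without D150L150 replicate 1, 2 without Control replicate 1), 0 to 597 over the spacer mean (0 without Control replicate 1), 0 to 303 in D15L200 and 0 to 239 in D15L150, so the shares of all genes called rest on single libraries. The cause of these changes was not tested. Each of the 10 genes had at least 82 recovered fragments in every library. A negative binomial test of the recovered fragments was not run, since the table is in FPKM. With quantile scaling, log2 differences that turned sign were Gclm -0.0037 and Hmox1 -0.061 in D150L150, Nqo1 -0.047 in D150L150 against D100L150. With rescaling to TPM, log2 differences that turned sign were Gclc 0.015 over the spacer mean, Prdx1 0.0028 in D15L100. With skeletal muscle level as covariate, log2 differences that turned sign were Gclc -0.031, Gclm -0.17 and Hmox1 -0.37 in D150L150, Nqo1 -0.036 in D150L150 against D100L150, Prdx1 0.0056 in D15L100, Prdx1 -0.0042 over the spacer mean, Slc7a11 -0.21 in D100L150, Slc7a11 -0.40, Srxn1 -0.021 and Txnrd1 -0.18 in D150L150 against D15L150, Srxn1 -0.0002 in D15L200. Without Control replicate 1 and D100L150 replicate 1 together, an alternative chosen after seeing the data, log2 differences that turned sign were Gclc 0.012, Gclm 0.018, Hmox1 0.28, Nfe2l2 0.20, Slc7a11 0.48 and Txnrd1 0.16 over the spacer mean. Leaving out 1 library at a time also turned the sign of small differences, none of them called, with these ranges: Gclc -0.037 to 0.27, Gpx2 -0.57 to 0.22 and Slc7a11 -0.22 to 1.42 in D100L150, Gclc -0.027 to 0.23, Gclm -0.16 to 0.28, Hmox1 -0.54 to 0.48, Slc7a11 -0.91 to 0.73 and Txnrd1 -0.29 to 0.20 in D150L150, Gclc -0.17 to 0.17, Gsta4 -0.92 to 0.12, Nqo1 -0.18 to 0.20, Slc7a11 -1.06 to 0.0097 and Srxn1 -0.48 to 0.028 in D150L150 against D100L150, Gclc -0.12 to 0.0099, Hmox1 -0.62 to 0.50, Nqo1 -0.0006 to 0.25, Prdx1 -0.19 to 0.033, Slc7a11 -1.09 to 0.55, Srxn1 -0.010 to 0.23 and Txnrd1 -0.33 to 0.17 in D15L200, Gclc -0.074 to 0.049, Gclm -0.39 to 0.054, Gpx2 -0.42 to 0.23, Hmox1 -0.67 to 0.35, Keap1 -0.16 to 0.0036, Nfe2l2 -0.24 to 0.24, Prdx1 -0.050 to 0.17, Slc3a2 -0.008 to 0.22, Slc7a11 -1.02 to 0.62 and Txnrd1 -0.28 to 0.21 over the spacer mean, Gpx2 -1.19 to 0.43, Prdx1 -0.13 to 0.088, Slc7a11 -1.36 to 0.28 and Srxn1 -0.19 to 0.0063 in D15L100, Nqo1 -0.35 to 0.014, Prdx1 -0.25 to 0.024, Slc7a11 -1.53 to 0.11, Srxn1 -0.091 to 0.10 and Txnrd1 -0.39 to 0.11 in D15L150, Txnrd1 -0.070 to 0.34 in D150L150 against D15L150.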

Other observations

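Within the same 18 libraries, several of the 10 genes were low where marker genes of connective tissue were high. The summed level of 6 fibroblast markers (Col1a1, Col1a2, Col3a1, Pdgfra, Dcn and Lum) gave a Pearson r on the log scale of -0.82 with Gclm, -0.80 with Slc7a11, -0.69 with Gclc and -0.68 with Txnrd1. Without the 2 libraries farthest from the median of the sum these were weaker, at -0.61, -0.47, -0.46 and -0.22. For Gsta4 the r with the fibroblast sum was -0.37, and with the sum of 4 adipocyte markers it was -0.75. None of the fibroblast or adipocyte markers was called in D100L150, in D150L150 or over the spacer mean. These values describe libraries that share preparation and scaling to their own totals, and the part of tissue composition in them was not tested.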
